A study of Rattus norvegicus with 14 samples.

Results

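The cholesterol synthesis genes studied here were Hmgcs1, Sqle, Idi1, Fdps, Fdft1, Cyp51, Dhcr7 and Insig1, 8 of the 30562 genes in the tables. They were chosen by symbol, as 7 enzymes of the pathway and 1 regulator of it, and all 8 were found and passed the filter on low counts. The libraries were made from dorsal root ganglia, which hold the cell bodies of sensory neurons with their glia, taken from levels L2 to L5 of wild-type male rats. In each of 7 rats a leg muscle, the extensor digitorum longus, had been grafted to the saphenous nerve of one hindlimb, and the other hindlimb was not operated on. The 14 libraries were 4 surgical ones at 8 weeks, 3 surgical ones at 6 weeks, 4 control ones at 8 weeks and 3 control ones at 6 weeks. Rats C, D, G and H were sampled at 8 weeks and rats A, B and E at 6 weeks. The control ganglia came from the same operated animals, each library is labelled with all these levels, and no sham operation is named in the labels.

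Cells build cholesterol from acetyl-CoA through mevalonate and a chain of isoprenoid units that is folded into lanosterol and trimmed to cholesterol. When sterols run low, the transcription factor SREBP-2, the product of Srebf2, moves to the nucleus and raises most enzymes of the chain together. Insig1, itself one of its targets, encodes the membrane protein that holds the factor back when sterols are plentiful. Myelin is rich in cholesterol, and myelinating Schwann cells, the glia that wrap peripheral axons, make much of their own, while sensory neurons also need sterol for their long membranes.

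The libraries held from 18489118 to 28237574 counts, and the lowest count of any of the 8 genes in any library was 365, of Dhcr7 in the control library of rat B. Tissue content varied between libraries. All 17 genes of a myelinating Schwann cell list and all 16 of a neuronal list were counted in each group. Their summed level ran from 1621 to 12596 TPM for myelin and from 1964 to 29166.5 TPM for neurons. All 10 genes of a skeletal muscle list were counted in every group too, and their sum was highest in the surgical libraries of rats C (37489.5 TPM) and E (1524 TPM) and in the control library of rat H (6728 TPM). By group the muscle sum ranged from 15.7 to 37489.5 TPM in surgical and from 40.4 to 6728 TPM in control ganglia at 8 weeks. At 6 weeks it ranged from 39.8 to 1524 TPM in surgical and from 31.3 to 94.9 TPM in control ganglia. All 9 spinal cord and central glia genes were counted in every group as well. Rat B had the highest sum on its surgical side (890 TPM), and the 3 groups other than surgical ganglia at 6 weeks ranged from 11.3 to 28.4 TPM. The part of these contents in the results was not tested except where a value is given. In whole ganglia, fewer cells of a type and less RNA per cell cannot be told apart.

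The upstream sequences of 6 of the 8 genes were found in the RefSeq promoter table of build GRCr8, and 4 of them are shown because their genes moved together or apart in these libraries. Each is the stretch of 250 bases just before the gene start, read on the strand of the gene. Capitals mark CCAAT and GGGCGG, the CCAAT and GC boxes, on either strand, so that ATTGG and CCGCCC are their reverse forms.
Hmgcs1, chr2:53382054-53382303, plus strand: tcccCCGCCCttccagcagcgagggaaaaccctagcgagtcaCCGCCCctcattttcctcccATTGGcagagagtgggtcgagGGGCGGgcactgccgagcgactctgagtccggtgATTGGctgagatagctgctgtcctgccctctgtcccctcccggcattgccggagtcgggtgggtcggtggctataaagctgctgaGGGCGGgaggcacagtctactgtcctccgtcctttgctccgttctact
Idi1, chr17:66547525-66547774, minus strand: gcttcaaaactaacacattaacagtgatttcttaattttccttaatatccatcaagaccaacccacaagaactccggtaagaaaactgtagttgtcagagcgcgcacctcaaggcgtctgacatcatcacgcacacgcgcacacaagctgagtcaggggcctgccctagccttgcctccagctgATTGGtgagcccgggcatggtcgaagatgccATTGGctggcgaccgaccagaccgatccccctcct
Fdps, chr2:176804817-176805066, minus strand: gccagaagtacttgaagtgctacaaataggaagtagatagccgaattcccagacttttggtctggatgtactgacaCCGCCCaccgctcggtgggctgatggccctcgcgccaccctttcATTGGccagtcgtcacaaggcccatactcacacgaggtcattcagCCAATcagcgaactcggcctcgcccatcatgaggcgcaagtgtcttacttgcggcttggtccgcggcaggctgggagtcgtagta
Dhcr7, chr1:208444184-208444433, plus strand: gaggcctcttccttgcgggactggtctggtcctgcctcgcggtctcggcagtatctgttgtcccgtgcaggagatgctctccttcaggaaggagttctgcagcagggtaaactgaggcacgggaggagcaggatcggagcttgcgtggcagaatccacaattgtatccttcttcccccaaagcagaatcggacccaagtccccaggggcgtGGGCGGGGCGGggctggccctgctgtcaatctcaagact
A CCAAT box stood in 4 of the 6 windows, and 34% of all 33469 promoters of the table hold one over the same length. A GC box stood in 5 of the 6, against 30.5% of all promoters. In the Dhcr7 window the 2 GC boxes share a base. The Idi1 window held 2 CCAAT boxes and no GC box, and that of Dhcr7 held GC boxes and no CCAAT box. TCACNCCAC, a strict spelling of the sterol element bound by SREBP, was found in 0 of the 6 windows and in 0.974% of all promoters. These letters are thus not in the windows searched, and other spellings of the sterol element were not looked for.

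The genes ranged widely in level. Per length, in TPM over the 14 libraries, the medians were 336 for Fdps, 200 for Hmgcs1, 110 for Cyp51, 92.1 for Insig1, 61.7 for Sqle, 54.9 for Fdft1, 38.9 for Idi1 and 17.6 for Dhcr7. Neighbours in this order kept it in all 14 libraries for Hmgcs1 over Cyp51, Cyp51 over Insig1, Insig1 over Sqle and Idi1 over Dhcr7. Fdps exceeded Hmgcs1 in 12 of 14 libraries, Sqle exceeded Fdft1 in 12 and Fdft1 exceeded Idi1 in 11, so these neighbours were not ordered in every library. Per gene, the highest TPM was from 3.28 (Insig1) to 4.91 times (Idi1) the lowest.

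**Figure D1:**
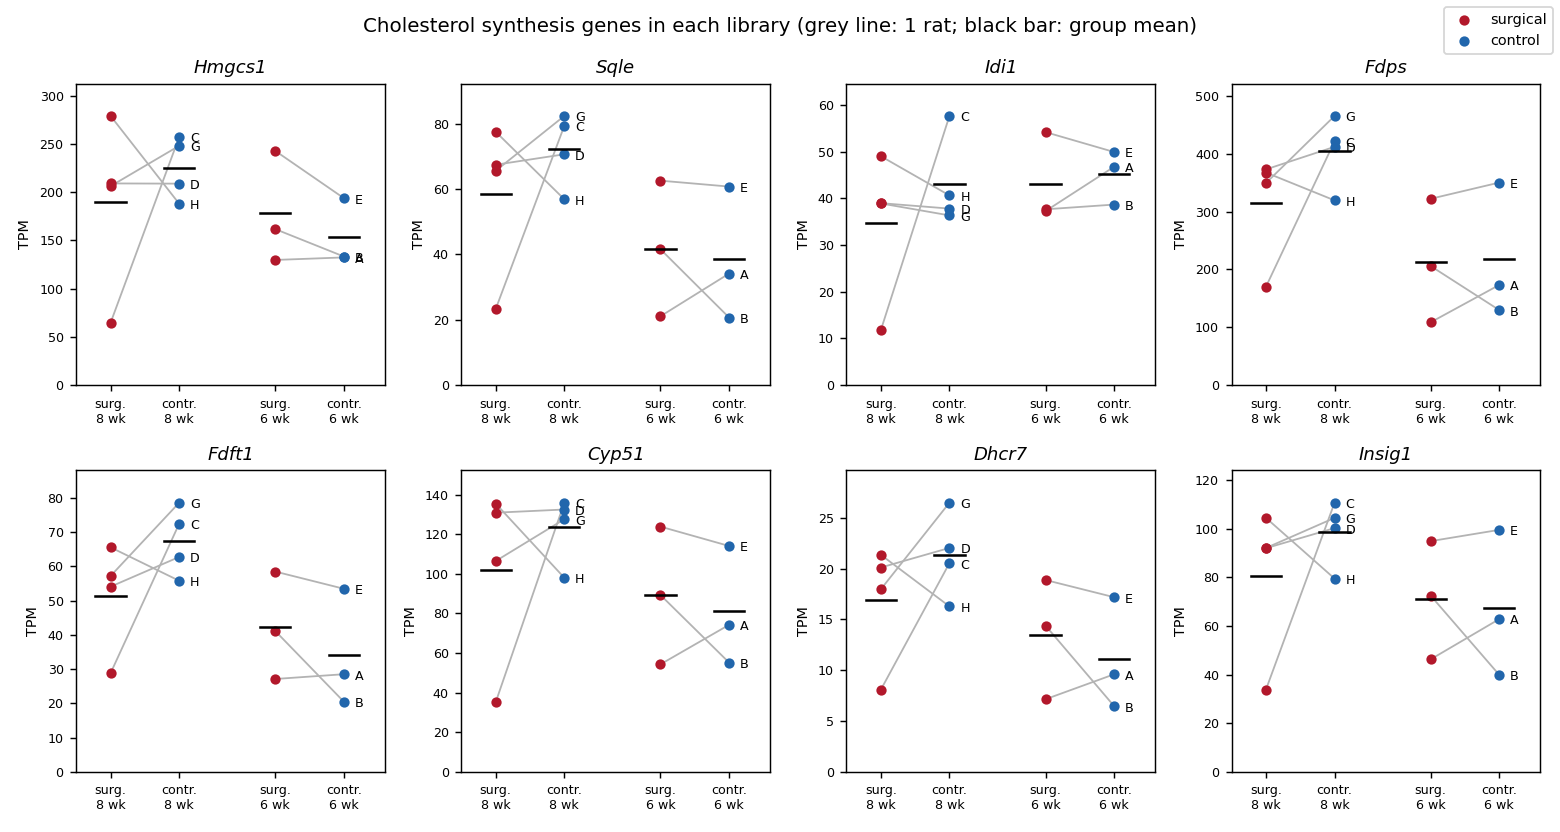
TPM (vertical axis, from 0) of each of the 8 genes in every library, with surgical (red) left of control (blue) at 8 weeks and at 6 weeks; a grey line joins the libraries of 1 rat, named by its letter, and a black bar is the group mean. In all 8 genes the surgical library of rat C was the lowest of its group, and the 2 sides overlapped at both times.

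The first comparison asked whether ganglia that serve the grafted nerve differ in these genes from those of the unoperated side, with each rat as its own control. None of the 8 passed the test over both times, and for every one of them the surgical and control values overlapped at each time. All 8 estimates lay below 0, from -0.30 to -0.11 on the log2 scale, and without rat C they lay between -0.09 and 0.05.

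Hmgcs1 (ENSRNOG00000016552) encodes cytosolic HMG-CoA synthase, which makes HMG-CoA from acetyl units. At 8 weeks it had 64.5, 209, 206 and 279 TPM in the surgical ganglia of rats C, D, G and H, and 257, 209, 248 and 188 TPM in their control ganglia. At 6 weeks it had 130, 162 and 243 TPM in the surgical ganglia of rats A, B and E, and 132, 133 and 194 TPM in their control ganglia. The library of rat C was low and rat H was high on the surgical side, and the sides overlapped. The log2 difference was -0.17 (SE 0.23, n = 7 rats, higher on the surgical side in 4; adjusted p = 1, edgeR quasi-likelihood test with Benjamini-Hochberg adjustment).

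Idi1 (ENSRNOG00000016690) encodes the isomerase that balances both isoprenoid building blocks. It had 11.7, 39.0, 38.9 and 49.0 TPM in the surgical ganglia of rats C, D, G and H, and 57.6, 37.8, 36.3 and 40.6 TPM in their control ganglia. At 6 weeks the surgical ganglia of rats A, B and E had 37.3, 37.6 and 54.2 TPM, and the control ganglia 46.8, 38.6 and 49.9 TPM. Rat C thus held both the lowest and the highest value of the gene, and the other 6 rats lay between them on both sides. The log2 difference was -0.30 (SE 0.24, higher in 4 of 7 rats; adjusted p = 1, edgeR).

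Fdps (ENSRNOG00000043377) encodes farnesyl diphosphate synthase, whose product also feeds protein prenylation. At 8 weeks it had 170, 373, 349 and 368 TPM in the surgical ganglia of rats C, D, G and H, and 422, 412, 466 and 319 TPM in their control ganglia. At 6 weeks it had 109, 206 and 322 TPM in the surgical ganglia of rats A, B and E, and 173, 130 and 350 TPM in their control ganglia. Rats A and C were the low ones on the surgical side, while in rats B and H the surgical value was the higher of the pair. The log2 difference was -0.20 (SE 0.17, higher in 2 of 7 rats; adjusted p = 1, edgeR).

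Cyp51 (ENSRNOG00000007234) encodes the demethylase that starts the trimming of lanosterol. Its surgical ganglia had 35.1, 131, 106 and 135 TPM in rats C, D, G and H, and the control ganglia 136, 132, 128 and 98.0 TPM. In rats A, B and E the surgical ganglia had 54.3, 89.3 and 124 TPM and the control ganglia 74.2, 55.2 and 114 TPM. Its log2 difference was -0.21 (SE 0.21; adjusted p = 1, edgeR), and the surgical library of rat C had the lowest value of all 14.

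The other 4 genes had similar estimates over both times. Sqle (ENSRNOG00000009550), the squalene epoxidase gene, ranged from 21.0 to 77.5 TPM in surgical and from 20.7 to 82.4 TPM in control ganglia, with a log2 difference of -0.21 (SE 0.21). Fdft1 (ENSRNOG00000021314), the squalene synthase gene, ranged from 27.1 to 65.5 TPM in surgical and from 20.4 to 78.6 TPM in control ganglia, with -0.11 (SE 0.15). Dhcr7 (ENSRNOG00000020776), whose enzyme carries out a last step to cholesterol, ranged from 7.15 to 21.4 TPM in surgical and from 6.46 to 26.5 TPM in control ganglia, with -0.13 (SE 0.17). Insig1 (ENSRNOG00000006859), the sterol-sensing regulator, ranged from 33.8 to 105 TPM in surgical and from 39.9 to 111 TPM in control ganglia, with -0.20 (SE 0.19; adjusted p = 1 for each of the 4, edgeR). The ranges of the sides overlapped in all 4.

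Over both times 0% of the 17035 genes tested passed an adjusted p under 0.05, and 0 of the 8 did. Of all genes 412 had an unadjusted p under 0.05, and 0 of the 8 were among them. DESeq2 called 6 genes and limma on TPM called 0, in neither case 1 of the 8. The median log2 difference of the 8 genes was -0.20, against 0.00 for all genes tested.

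Rat by rat the 8 genes did not move one way. Relative to its control library, the surgical library was lower in 8 of 8 genes in rat C and higher in 8 of 8 in rat H. It was higher in 1 of 8 in rats A and G, in 6 of 8 in rat B, in 5 of 8 in rat E and in 4 of 8 in rat D. In rat C the log2 CPM differences ran from -1.77 for Idi1 to -0.81 for Fdps. In the other 6 rats they stayed between -0.68 (Fdps in rat A) and 0.56 (Dhcr7 in rat B).

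**Figure D2:**
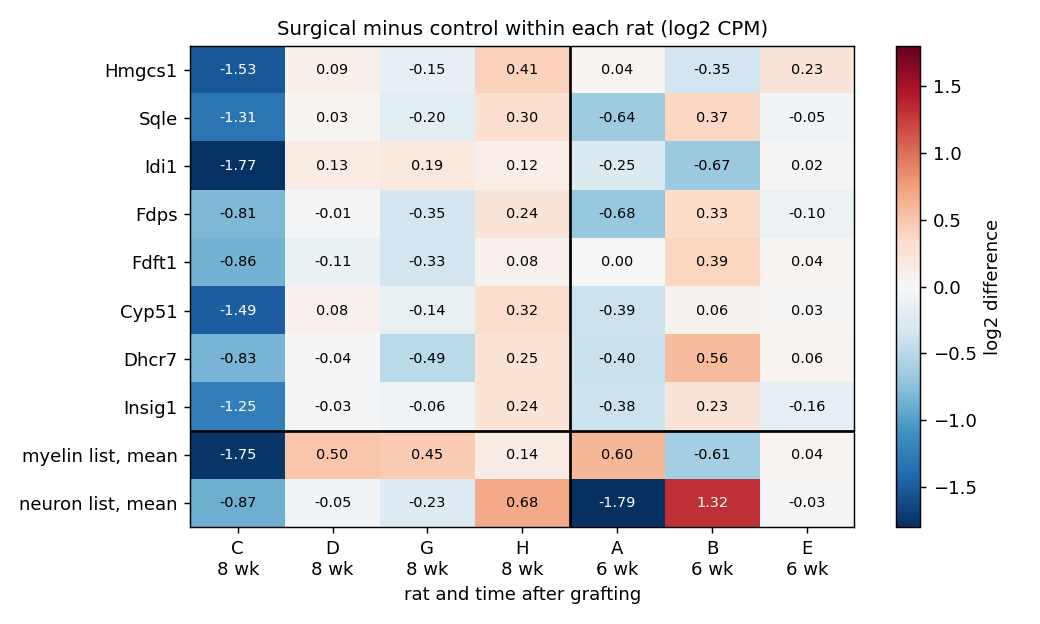
Surgical minus control difference in log2 CPM (colour and number in each cell) for the 8 genes and for the mean of the myelin and neuron lists (rows) in each rat (columns, 8 weeks left of 6 weeks). Rat C was negative in every row, and the myelin and neuron lists had opposite signs in rats A, B, D, E and G.

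In the same pairs the mean log2 CPM of the myelin list differed by -1.75 in rat C, 0.50 in D, 0.45 in G and 0.14 in H at 8 weeks, and by 0.60 (rat A), -0.61 (rat B) and 0.04 (rat E) at 6 weeks. The neuronal list differed by -0.87 in rat C, -0.05 in D, -0.23 in G and 0.68 in H, and by -1.79 (rat A), 1.32 (rat B) and -0.03 (rat E). Rat C was thus the rat in which both lists were far lower on the surgical side, in the library with the high muscle level. Without rat C the lowest estimate over both times was that of Fdps (-0.09, SE 0.16), and those of Hmgcs1 (0.05, SE 0.14) and Fdft1 (0.01, SE 0.11) turned positive.

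**Figure D3:**
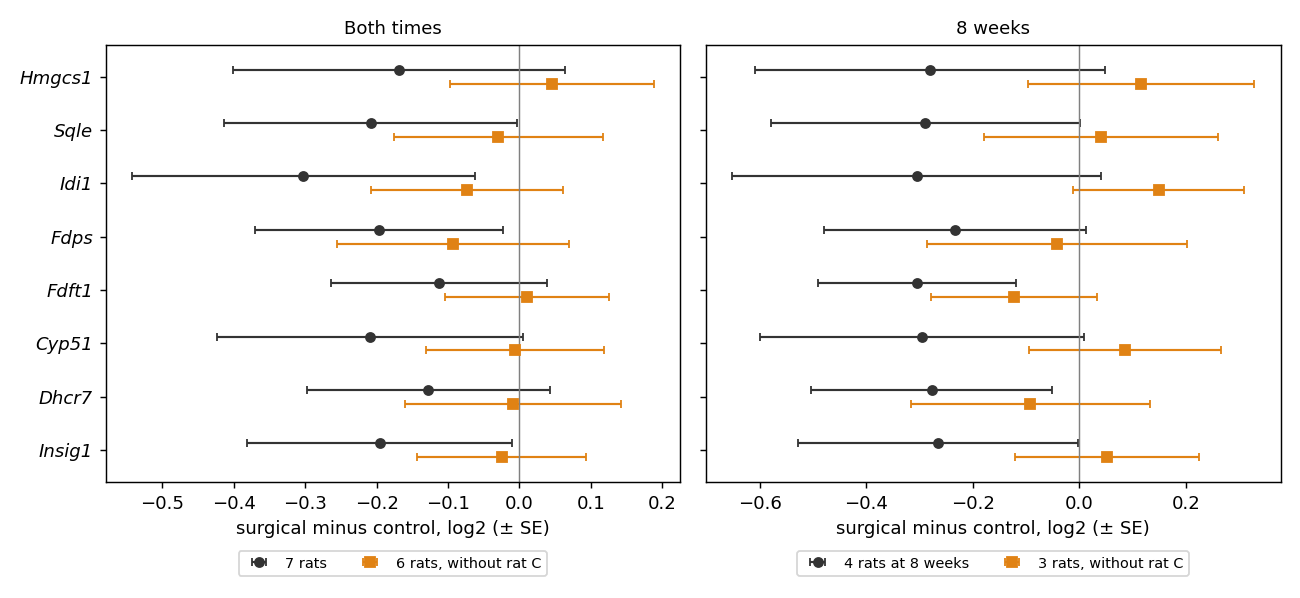
Surgical minus control log2 difference (horizontal axis, bars are SE) of the 8 genes over both times (left) and at 8 weeks (right), with all rats (black circles) and without rat C (orange squares). With all rats every point lay below 0; without rat C the points at 8 weeks ran from -0.12 (Fdft1) to 0.15 (Idi1).

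At 8 weeks, the later time, all 8 genes again had negative estimates, from -0.31 (Idi1, SE 0.35) to -0.23 (Fdps, SE 0.25), and none passed (adjusted p = 1 for each, edgeR, n = 4 rats). Among all genes 0% passed, 180 had an unadjusted p under 0.05 and DESeq2 called 4. Without rat C, 5 of the 8 were positive: Idi1 (0.15, SE 0.16), Hmgcs1 (0.12, SE 0.21), Cyp51 (0.09, SE 0.18), Insig1 (0.05, SE 0.17) and Sqle (0.04, SE 0.22). Fdft1 (-0.12, SE 0.16), Dhcr7 (-0.09, SE 0.22) and Fdps (-0.04, SE 0.24) were negative.

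At 6 weeks Idi1 had the lowest estimate at -0.30 (SE 0.39), and Fdft1 (0.14, SE 0.21) and Dhcr7 (0.07, SE 0.26) were positive. The other 5 lay between -0.15 (Fdps, SE 0.28) and -0.03 (Hmgcs1, SE 0.37). None passed (adjusted p = 0.999 for each, edgeR, n = 3 rats), as 0% of all genes did, while 546 had an unadjusted p under 0.05 and DESeq2 called 44. The median of the 8 genes at 6 weeks was -0.10 against -0.01 for all genes, and 0.12 against 0.16 on TPM with 1 added. The test of the difference between the changes at 8 and at 6 weeks gave values from -0.45 for Fdft1 (SE 0.28) to -0.01 for Idi1 (SE 0.51). Adjusted p was 1 for each (edgeR). Here too 0% of all genes passed, with 252 at an unadjusted p under 0.05 and 5 called by DESeq2. Without rat C this difference ran from -0.26 (Fdft1, SE 0.22) to 0.45 (Idi1, SE 0.23).

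The second comparison set 8 against 6 weeks on each side, between different rats. In control ganglia Sqle, Fdps, Fdft1 and Dhcr7 had higher estimates at 8 weeks, Idi1 had a lower one, and Hmgcs1, Cyp51 and Insig1 stood near 0. None of these passed the test in the full set of rats. Fdps had 422, 412, 466 and 319 TPM in control ganglia at 8 weeks (rats C, D, G and H), against 173, 130 and 350 TPM at 6 weeks (rats A, B and E). Rat E was the high one at 6 weeks and brought the groups into overlap. On the count scale the log2 difference of Fdps was 0.56 (SE 0.27; adjusted p = 0.18, edgeR).

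Sqle stood at 0.37 (SE 0.23; adjusted p = 0.268), Fdft1 at 0.43 (SE 0.20; adjusted p = 0.182) and Dhcr7 at 0.44 (SE 0.23; adjusted p = 0.206, edgeR for each). Idi1 had 6.69, 6.16, 6.08 and 6.31 log2 CPM in control ganglia at 8 weeks (rats C, D, G and H), against 7.11, 7.04 and 6.80 at 6 weeks (rats A, B and E). These groups did not overlap, which was so for no other of the 8 genes on this scale and for 24.9% of all 16346 genes tested. Its log2 difference was -0.67 (SE 0.18; adjusted p = 0.102, edgeR), and DESeq2 called it alone among the 8, where it called 3133 of all genes (20.1%). On the TPM scale the difference of Idi1 was -0.08 (SE 0.19), in a fit whose median over all genes was 0.42 rather than -0.06. In TPM the control groups of Idi1 overlapped, while those of Fdft1 did not. Fdft1 ranged from 55.8 to 78.6 TPM at 8 weeks, against 20.4 to 53.4 TPM at 6 weeks. The share of all genes without overlap in TPM is not given here. Hmgcs1 (-0.03, SE 0.17), Cyp51 (0.03, SE 0.17) and Insig1 (-0.01, SE 0.19) had estimates smaller than their SE on the count scale, and 0.57, 0.65 and 0.63 on the TPM scale.

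Of 16346 genes 25 passed in control ganglia (0.153%; 3 higher and 22 lower at 8 weeks), 0 of the 8 among them, and 5108 had an unadjusted p under 0.05. Without each of rats A, B, C, D and G 0 genes passed, and without rat H 1. Without rat E 6388 of 16676 genes passed (38.3%) and 5 of the 8 did. These were Fdps (0.96, SE 0.19; adjusted p = 0.014), Fdft1 (0.74, SE 0.15; 0.0142), Dhcr7 (0.74, SE 0.20; 0.0294) and Sqle (0.69, SE 0.19; 0.0281), which were higher at 8 weeks, and Idi1 (-0.68, SE 0.19; 0.0299, edgeR for each), which was lower. That fit rests on 2 control rats at 6 weeks.

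Beside these values, the neuronal list averaged 9.09 log2 CPM (SD 0.32, n = 4) in control ganglia at 8 weeks and 7.98 (SD 1.02, n = 3) at 6 weeks. The myelin list averaged 6.77 (SD 0.34, n = 4) at 8 weeks and 7.79 (SD 0.28, n = 3) at 6 weeks. The control library of rat E, at 8.98, had the highest neuronal level of the 3 at 6 weeks. With the neuronal level as a covariate, Fdps stood at 0.05 (SE 0.11), Fdft1 at 0.05 (SE 0.11), Dhcr7 at -0.02 (SE 0.15) and Sqle at -0.10 (SE 0.10), while Idi1 stood at -0.52 (SE 0.21). With the myelin level as a covariate, Fdps stood at -0.21 (SE 0.42), Fdft1 at -0.07 (SE 0.36), Dhcr7 at -0.41 (SE 0.31), Sqle at -0.20 (SE 0.40) and Idi1 at -0.01 (SE 0.27). None of the 8 passed with either covariate.

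In surgical ganglia 0% of 16606 genes passed for 8 against 6 weeks, 1089 had an unadjusted p under 0.05, DESeq2 called 8 and limma on TPM 3. Fdps stood at 0.48 (SE 0.36; adjusted p = 0.684), Sqle at 0.25 (SE 0.38; 0.827) and Idi1 at -0.61 (SE 0.37; 0.671, edgeR for each). The other 5 lay between -0.19 (Hmgcs1, SE 0.40) and 0.12 (Dhcr7, SE 0.31). Without rat C the values were 0.64 for Fdps (SE 0.34), 0.47 for Sqle (SE 0.27) and -0.37 for Idi1 (SE 0.19). The groups at 8 and 6 weeks overlapped in surgical ganglia for all 8 genes. Their median was -0.02 against 0.01 for all genes, and 0.20 against 0.20 on TPM with 1 added.

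The third question was how these genes relate to the myelin and the neuronal content of a library. A slope gives the log2 change of a gene per 1 log2 unit of the mean level of a list, within rats. It was fitted over all 14 libraries with the surgical side in the model. The lists and the genes were measured in the same libraries, so the slopes describe libraries and not cells. On the myelin level all 8 slopes were positive. Idi1 had the steepest at 0.79 (SE 0.15; adjusted p = 0.149), followed by Hmgcs1 at 0.67 (SE 0.20; 0.256) and Cyp51 at 0.53 (SE 0.22; 0.35, edgeR for each). The other 5 ran from 0.13 (Fdps, SE 0.23) to 0.40 (Insig1, SE 0.21).

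None of the 8 passed for the myelin slope, where 12 of 17035 genes did (0.0704%, 11 of them with a positive slope). DESeq2 called 834 genes, Idi1 and Hmgcs1 among them. Without rat C, 6 of the 8 slopes were negative, from -0.78 for Dhcr7 (SE 0.22) to -0.24 for Cyp51 (SE 0.25). Only Idi1 (0.52, SE 0.25) and Hmgcs1 (0.23, SE 0.28) stayed positive, and again none passed. By rat, the difference between the sides had the sign of the myelin difference in 6 of 7 rats for Idi1 and for Hmgcs1, and in 2 of 7 for Fdps and Insig1.

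**Figure D4:**
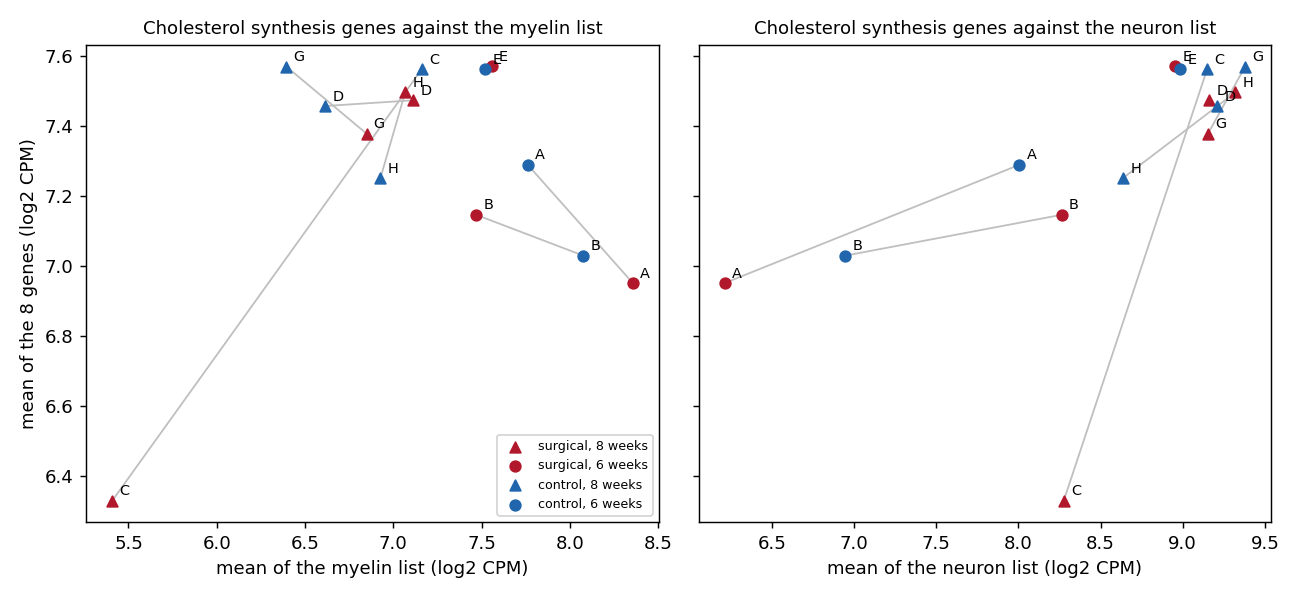
Mean log2 CPM of the 8 genes (vertical axis) against the mean log2 CPM of the myelin list (left) and of the neuron list (right) in each library, with surgical in red, control in blue, triangles at 8 weeks and circles at 6 weeks; a grey line joins the libraries of 1 rat, named by its letter. The surgical library of rat C, at 6.33, lay below all others, and the lines of rats A and B sloped down against myelin and up against neurons.

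On the neuronal level the slopes were positive for all 8 as well, but in another order. Sqle (0.46, SE 0.14; adjusted p = 0.078), Fdps (0.40, SE 0.09; 0.0327) and Dhcr7 (0.39, SE 0.12; 0.0838, edgeR for each) had the steepest. Fdps was the only one of the 8 to pass, and in 7 of 7 rats its side difference had the sign of the neuronal difference. As background, 2125 of 17035 genes passed (12.5%, 2043 of them with a positive slope), and 1 of 8 equals that share. Insig1 (0.34, SE 0.15; same sign in 7 of 7 rats) and Cyp51 (0.34, SE 0.19) followed. Idi1 (0.13, SE 0.26) and Hmgcs1 (0.15, SE 0.24) had slopes smaller than their SE, with the same sign as the neuronal level in 3 of 7 rats.

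The call of Fdps was lost without each of rats B, D, E, G and H, with slopes from 0.33 to 0.41, and in the fit on log2 TPM with 1 added. Without rat C its slope was 0.34 (SE 0.07; adjusted p = 0.0271) and Sqle passed as well (0.34, SE 0.06; 0.0164, edgeR for each). The share of all genes that passed in the fit without rat C is not given here, so these calls cannot be set against it. With all rats that share was 12.5%. Without rat C the slopes of Idi1 (-0.07, SE 0.13) and Hmgcs1 (-0.04, SE 0.12) were negative. Without the pairing of libraries by rat 6 of the 8 passed, all but Idi1 and Hmgcs1. In that fit 7725 of the 17035 genes tested passed, so a large part of all genes did.

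**Figure D5:**
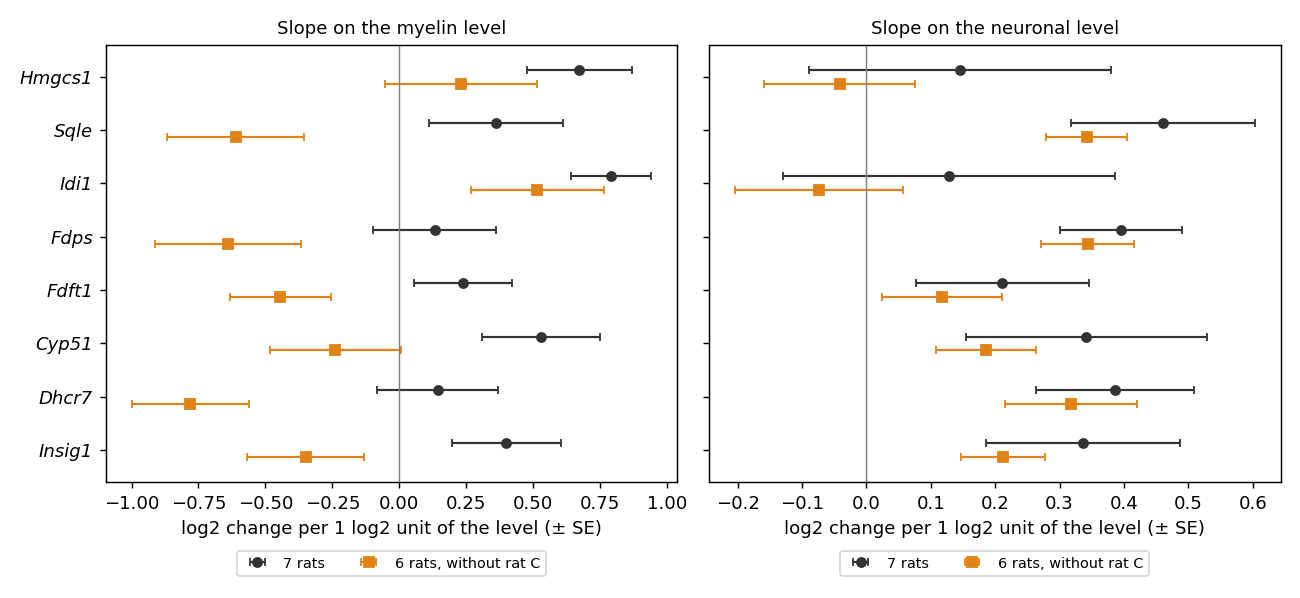
Slope of each of the 8 genes (horizontal axis, log2 change per 1 log2 unit of the list level, bars are SE) on the myelin level (left) and on the neuronal level (right), with 7 rats (black circles) and without rat C (orange squares). On the myelin level 6 of the 8 points changed sign without rat C, and on the neuronal level Sqle, Fdps and Dhcr7 stayed at 0.32 or above.

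With both levels in 1 model, the myelin slope passed for Idi1 (0.81, SE 0.10; adjusted p = 0.0252) and Cyp51 (0.57, SE 0.09; 0.0376, edgeR for each), in a fit where 2.14% of all genes passed. Hmgcs1 stood at 0.70 (SE 0.13; adjusted p = 0.0508). The neuronal slope in that model passed for 5 of the 8, where 18.6% of all genes passed. They were Sqle (0.49, SE 0.07), Fdps (0.41, SE 0.07), Dhcr7 (0.40, SE 0.11), Cyp51 (0.39, SE 0.07) and Insig1 (0.37, SE 0.07). The surgical library of rat C is part of this fit.

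Among themselves the 8 genes formed 28 pairs, with a median Pearson r of 0.76 across the 14 libraries and of 0.71 across the 13 without the surgical library of rat C. These are descriptions, since both libraries of a rat share the animal. Across 14 libraries the closest pair was Cyp51 with Insig1 (r = 0.96, and 0.88 across 13), and across 13 it was Sqle with Fdps (r = 0.98). Sqle, Fdps, Fdft1 and Dhcr7 formed a close set, with r from 0.88 to 0.96 across 14 libraries and from 0.89 to 0.98 across 13. Idi1 stood apart from this set. It had the lowest r of all with Fdps (-0.17), and across 13 libraries its r with Sqle, Fdft1, Fdps and Dhcr7 ran from -0.68 to -0.54. Across 14 libraries its r was 0.79 with Hmgcs1, 0.65 with Cyp51 and 0.63 with Insig1. Across 13 these stood at 0.23, -0.20 and -0.13. Hmgcs1 followed Cyp51 at r = 0.90 across 14 libraries and at 0.47 across 13.

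Of 13855 other genes ranked by r with the mean of the 8 standardised levels across 14 libraries, the nearest was Sc5d (r = 0.96), the sterol desaturase that acts just before Dhcr7. It was followed by Ntrk3 and Lrrn3 (0.95 each) and by Dnai7, Zbtb4, Sccpdh, Ctxnd1 and Elovl6 (0.94 each). Ntrk3 encodes a neurotrophin receptor of large sensory neurons and Elovl6 a fatty acid elongase. Across 13 libraries the r of these 8 genes lay between 0.83 and 0.90, and their ranks between 73 (Dnai7) and 1003 (Zbtb4). Sc5d fell to rank 505, Elovl6 to 662 and Ntrk3 to 883, and the nearest gene across 13 was Cox19 (r = 0.95). Of 16 other enzymes of the pathway, 12 were in the top 10% of the ranking across 14 libraries and 5 across 13. Srebf2 ranked 1702 (r = 0.65) and Lbr, a nuclear membrane protein with sterol reductase activity, ranked 12747 (r = -0.83).

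Other genes of sterol and lipid metabolism did not pass between the sides either. Of the 16 other enzymes 2 had positive estimates over both times, with a median of -0.14 against 0.00 for all genes, and 0 passed. The lowest p were those of Pmvk (-0.24, SE 0.13), Ebp (-0.17, SE 0.10) and Mvk (-0.18, SE 0.11). Without rat C 9 of the 16 were positive, with a median of 0.01, and Pmvk stood at -0.15 (SE 0.12), Ebp at -0.16 (SE 0.09) and Mvk at -0.14 (SE 0.11). Of 9 tested genes of sterol sensing and SREBP control 5 were positive, with a median of 0.02 and 0 passing; without rat B 1 was, with a median of -0.05. Srebf2 stood at 0.02 (SE 0.13), Srebf1 at -0.06 (SE 0.09) and the SREBP escort Scap at 0.04 (SE 0.11).

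Of 18 genes of cholesterol uptake, transport, storage and export 7 were positive, with a median of -0.05 and 0 passing. Without rat C 6 were, with a median of -0.14, and without rat B 10 were, with a median of 0.00. The lysosomal lipase gene Lipa stood at -0.34 (SE 0.20), the lipid carrier Apoe at -0.30 (SE 0.18) and the hydroxylase Ch25h at -0.41 (SE 0.28). Without rat C these stood at -0.19, -0.24 and -0.27. Of 9 fatty acid synthesis genes 4 were positive, with a median of -0.02; without rat C 7 were (median 0.13) and without rat B 0 (median -0.10). The desaturase Scd stood at -0.30 (SE 0.28), Fads2 at 0.09 (SE 0.16) and Fads1 at -0.06 (SE 0.14; adjusted p = 1 for every gene named for the sides, edgeR). Without rat C they stood at -0.09, 0.13 and 0.04.

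For 8 against 6 weeks in control ganglia, 9 of the 16 other enzymes were positive, with a median of 0.24 against -0.06 for all genes and 0 passing. Lbr had the lowest estimate among them (-1.09, SE 0.59; adjusted p = 0.221, edgeR) and was chosen after its value was seen. Srebf2 stood at 0.41 (SE 0.17; adjusted p = 0.153, edgeR). Of 9 SREBP control genes 6 were positive with a median of 0.41, of 18 uptake and export genes 5 with -0.53, and of 9 fatty acid synthesis genes 9 with 0.52; 0 passed in each list. On TPM the median of the uptake and export genes was 0.05 with 1 added and 0.07 with 0.1 added, in fits with a median over all genes of 0.42 and 0.53.

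On the myelin level 15 of the 16 other enzymes had positive slopes, with a median of 0.30 against -0.06 for all genes and 0 passing. On the neuronal level 13 of 16 were positive, with a median of 0.23 against -0.00 for all genes, and 1 passed. In that fit 12.5% of all 17035 genes passed, the share to set beside this and the next counts on the neuronal level. Of the SREBP control genes 2 passed on the neuronal level. One was Mylip, which encodes a ubiquitin ligase induced by sterols through LXR, with a negative slope (-0.41, SE 0.11; adjusted p = 0.044, edgeR); it was chosen after its value was seen. Srebf2 stood at 0.23 (SE 0.10; adjusted p = 0.177) on the neuronal and at -0.00 (SE 0.15) on the myelin level. Of the 18 uptake and export genes 2 passed on the neuronal level, both with positive slopes. They were Abcg1 (0.49, SE 0.09) and Lipa (0.50, SE 0.11), while the median of the list was -0.13, and 0.11 on TPM with 1 added. Of the 9 fatty acid synthesis genes 2 passed (median 0.39). On the myelin level 0 genes of either list did.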

How the data were processed

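RNA of 14 libraries from 7 rats was compared, with a surgical and a control library from each rat as given by the sample titles. Titles and library names swap rats C and D on both sides; letters here are those of the titles, and the pairs are the same either way. The labels call the extracted molecule polyA RNA, and their protocol names ribosomal depletion. The submitters' processing notes list FastQC, Trim Galore, Salmon and DESeq2; versions, genome build and annotation are not given in the sources used here. The authors deposited estimated counts, which were whole numbers in the files (0 non-whole values), and TPM of the same genes. TPM are corrected for transcript length and counts are not.

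Tests on the estimated counts used edgeR 4.0.16 under R 4.3.3, after filterByExpr with a minimum count of 10, with TMM scaling and robust quasi-likelihood dispersion. Sides and slopes were fitted over 14 libraries with the rat as a block, since both libraries of a rat come from the same animal. The slopes also had the surgical side in the model, and the times were fitted over the 7 libraries of a side. Residual degrees of freedom were 6 for both times together and 5 for each time and between times. The deviations of the libraries of a rat from their group means had an r of 0.26 in rat A, -0.12 in B, 0.75 in E, -0.41 in C, -0.09 in D, 0.13 in G and -0.31 in H. P values were two-sided and adjusted by Benjamini-Hochberg over all genes tested, with a threshold of 0.05. The SE is the size of the log2 difference over the root of the quasi-likelihood F. Levels per library are log2 CPM with a prior count of 2, and a list level is the mean over its genes.

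Alternatives were DESeq2 1.42.0, its size factors, no count filter or one at 1 CPM, dispersion without the robust option, limma 3.58.1 for log2(TPM + 1) and log2(TPM + 0.1) at a mean of at least 0.5 TPM, no block, each rat left out, rats B, C and H left out together, 1 time alone, a transcript length trend removed (lowess span 0.3), and list levels as covariates. The neuronal covariate for the times was chosen after the data were seen. The fits were also run on simulated counts with known changes, drawn from a single mean per gene and a fixed dispersion. No rat or tissue differences beyond those changes were put in, and the outcome is not given here. The 8 genes and the 15 lists (161 genes, 4 of them not in the tables) were chosen with earlier results of these data known. All 8 genes were named, and of each other list the 3 genes with the smallest p over both times at a mean of at least 1 TPM, with Srebf2 in any case; some genes that this names are not reported here. The 8 genes most like them in level were also named. Promoters are from RefSeq, build GRCr8.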

Additional observations from a re-analysis of the deposited data

Results flagged for a closer look

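In the surgical group at 8 weeks the library of rat C stood far below the other 3 rats for 5 of the 8 genes, by Dixon's ratio of the gap to the range at its 95% critical value. Its log2 CPM was 7.73 for Hmgcs1, 5.96 for Sqle, 4.92 for Idi1, 6.52 for Fdft1 and 6.42 for Insig1. Over the 16 groups tested chance flags about 1 in 20, and all 5 here are the same library. It also held the highest muscle level, 11.67 log2 CPM, where the 11 libraries other than it, the control of rat H (9.03) and the surgical one of rat E (6.89) ran from -0.12 to 3.84. Its myelin level was 5.41 and its neuronal level 8.28, against 7.16 and 9.15 in the control library of the same rat. The part of the muscle content in these low values was not tested.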

How the results depend on the processing

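Between the sides, 0 of the 8 genes passed under any alternative run. Without rat C the estimates of Hmgcs1 (-0.27 to 0.046 over single rats left out) and Fdft1 (-0.19 to 0.010) turned positive, as did those of Hmgcs1 (0.051) and Idi1 (0.024) without rats B, C and H. DESeq2 called 6 genes over both times, 4 at 8 weeks, 44 at 6 weeks and 5 for the difference, and edgeR without the block called 2 at 6 weeks. The cause of these changes was not tested.

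For 8 against 6 weeks in control ganglia DESeq2 called 3133 genes and 1 of the 8, limma on TPM 11, and limma with the length trend removed 10. On TPM, whose median over all genes was 0.42 with 1 added and 0.53 with 0.1 added, the median of the 8 genes was 0.81 and 0.83. With myelin as a covariate 0 genes were called, the median was -0.21, and Sqle (-0.20), Fdps (-0.21), Fdft1 (-0.066) and Dhcr7 (-0.41) reversed. With the neuronal covariate 40 were called, the median was -0.070, and Sqle (-0.10) and Dhcr7 (-0.024) reversed. Leaving out single rats gave 0 (A) to 6388 (E) genes, 0 to 5 of the 8, and medians of 0.12 to 0.46. In surgical ganglia DESeq2 called 8 and limma 3 or 5, and the median with the myelin covariate was 0.48.

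For the myelin slope DESeq2 called 834 genes and 2 of the 8, limma 2 or 0, no filter 0, the fit with no block 313 and 1, and both levels together 365 and 2. Without rats B, C and H 0 were called, the median was -0.45, and Hmgcs1 (-0.41), Idi1 (-0.19) and Cyp51 (-0.48) reversed. Single rats left out gave 0 to 2728 genes, medians of -0.40 (C) to 0.52, and -0.24 to 0.66 for Cyp51. For the neuronal slope DESeq2 called 3133 genes and 2 of the 8, and limma with 1 added 2009 genes and 0 of the 8. Both levels together called 3167 genes and 5 of the 8, and the fit with no block 7725 of 17035 genes and 6. The median was 0.54 and 0.56 on TPM with 1 and 0.1 added, where that of all genes was 0.18 and 0.23. Without rats B, C and H 0 genes and 0 of the 8 were called. Single rats left out gave 708 (B) to 3017 (A) genes, 0 to 4 of the 8, and medians of 0.20 to 0.56.

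Counts of at least 365 put counting error far below the spread between rats, which limits these results. The 3 or 4 rats of a group, 3 libraries with muscle content, and list levels that stand for cell content set the other limits.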

Other observations

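Over both times, the other lists gave the following log2 differences between surgical and control ganglia, with 0 genes passing in any (adjusted p = 1, edgeR). Single rats moved many of them, so values without rat C, whose surgical library held the highest muscle level, or without rat B, whose surgical library held the highest spinal cord level, stand beside them. Of 17 myelinating Schwann cell genes 4 were positive (median -0.12), 16 without rat C (median 0.18) and 13 without rat B (median 0.04). Cnp stood at 0.21, Ncmap at -0.30 and Mag at 0.30. Without rat C they stood at 0.28, -0.06 and 0.59, and without rat B at 0.17, -0.04 and -0.01. Of 16 neuronal genes 1 was positive (median -0.16), 8 without rat C (median -0.00) and 0 without rat B (median -0.36). Scn9a stood at -0.36, Elavl4 at -0.32 and Uchl1 at -0.22, and without rat C at -0.16, -0.11 and -0.11.

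Satellite glia genes, listed for the cells that wrap the neuron bodies, were positive in 3 of 9 (median -0.02, and 0.06 on TPM with 1 added), in 5 without rat C (median 0.12) and in 2 without rat B (median -0.28). The list stood at 6.52 log2 CPM in the surgical library of rat B, where the spinal cord list stood at 6.51. In the other libraries the satellite glia list ran from 4.16 to 4.91. The part of spinal cord tissue in these values was not tested. Aqp4 stood at 1.06, Fabp7 at -0.37 and Gja1 at 0.30, without rat C at 1.06, -0.15 and -0.03, and without rat B at 0.33, -0.60 and 0.09. All 10 muscle genes were positive (median 0.95), with Myh2 at 1.76, Tnnc2 at 1.29 and Tnnt3 at 1.04. Without rat C 6 were positive (median 0.16), and these 3 stood at 0.52, 0.40 and 0.23. All 8 tested spinal cord genes were positive (median 1.02), with Slc32a1 at 1.70, Gfap at 0.74 and Mog at 1.52. In rat B the mean level of this list differed by 4.79 between the sides, and in the other 6 rats by -1.04 (rat C) to 1.1 (rat E). Without rat B 7 of the 8 were positive (median 0.36), and the 3 named stood at 1.15, 0.42 and 0.80.

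Of 8 adipocyte genes 1 was positive (median -0.41), with Lipe at -0.25, Adipoq at -1.23 and Lpl at -0.41, and without rat B with Lpl at -0.21. Macrophage genes were positive in 5 of 9 (median 0.10), in 2 without rat C (median -0.18) and in 8 without rat B (median 0.21). Ptprc stood at 0.49, Cd163 at 0.31 and C1qb at -0.22, and without rat C at 0.25, 0.01 and -0.48. Endothelial genes were positive in 1 of 7 (median -0.12) and in 4 without rat B (median 0.00), with Cdh5 at -0.33, Vwf at -0.32 and Eng at -0.25, and without rat B at -0.13, -0.21 and -0.13. Fibroblast genes were positive in 2 of 6 (median -0.26), in 1 without rat C (median -0.41) and in 4 without rat B (median 0.08). Pdgfra stood at -0.45, Dcn at -0.51 and Col1a1 at 0.62, without rat C at -0.50, -0.35 and 0.13, and without rat B at -0.25, -0.14 and 0.75. All 5 tested red blood cell genes were positive (median 0.29), and 2 without rat C (median -0.06). Slc4a1 stood at 0.74, Alas2 at 0.45 and Hba-a3 at 0.27, and without rat C at 0.29, 0.08 and -0.06.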
